A study of Mus musculus with 18 samples.

Results

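The MHC class II genes and their regulator were followed as 10 members, taken by gene symbol from the counts of 24421 genes: H2-Aa, H2-Ab1, H2-Eb1, Cd74, H2-DMa, H2-DMb1, H2-DMb2, H2-Oa, H2-Ob and Ciita. All 10 were counted in these libraries and all 10 passed the filter on low counts, which 10550 genes passed; Ciita, H2-Oa, H2-Eb1, H2-DMb2 and H2-Aa passed through the MHCII+ subsets, since they had few or no counts in LYVE1+CX3CR1+ cells. RNA was sequenced in bulk from macrophages sorted from the synovium, the membrane that lines joints, of C57BL/6 mice (wild type, C57BL/6J background, in the study's methods), whose ages the labels do not give. There were 3 subsets (LYVE1+CX3CR1+, MHCII+CD11c- and MHCII+CD11c+), each untreated and 8 h after intravenous immune complexes (IC), which were ovalbumin bound by rabbit polyclonal antibody to ovalbumin. Each of the 6 groups had 3 libraries, 18 in all, and each library held cells pooled from the legs of 3 mice. Untreated and IC mice shared the genotype and the sort, and no group received antigen or antibody alone.

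MHC class II molecules present peptides from engulfed material to CD4 T cells. An alpha and a beta chain assemble around the invariant chain (Cd74), which guides them to the endosome, where H2-M (H2-DMa with H2-DMb1 or H2-DMb2) exchanges the remnant of the invariant chain for a peptide and H2-O (H2-Oa with H2-Ob) restrains H2-M. CIITA, the product of Ciita, is the transactivator that turns these genes on through factors bound to the X and Y boxes of their promoters; interferon-gamma induces it, and in the synovium class II separates macrophage populations. In C57BL/6 mice I-A (H2-Aa with H2-Ab1) is the surface molecule, and I-E is not assembled because H2-Ea is a pseudogene, although its partner H2-Eb1 is transcribed.

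The sort stained I-A/I-E, and LYVE1+CX3CR1+ cells were gated as MHCII-. Differences of H2-Aa, H2-Ab1 and H2-Eb1 between LYVE1+CX3CR1+ and MHCII+ cells are therefore values with no test, whereas all 10 members were tested in every other comparison. The same gate was used after IC, so the changes of these 3 genes are those of cells on their side of it. Movement of cells across the gate was not tested. Depth was uneven, from 245903 to 2172358 counts a library. MHCII+CD11c- IC library 2 was the smallest, so that 1 count was worth 3.75 CPM (the count relative to the library's total, scaled by TMM factors for composition), against 0.478 to 2.60 CPM in the other libraries. In bulk RNA, fewer cells that carry a transcript and less transcript per cell cannot be told apart, and where nothing says that libraries came from separate experiments their spread may be partly technical.

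**Figure D1:**
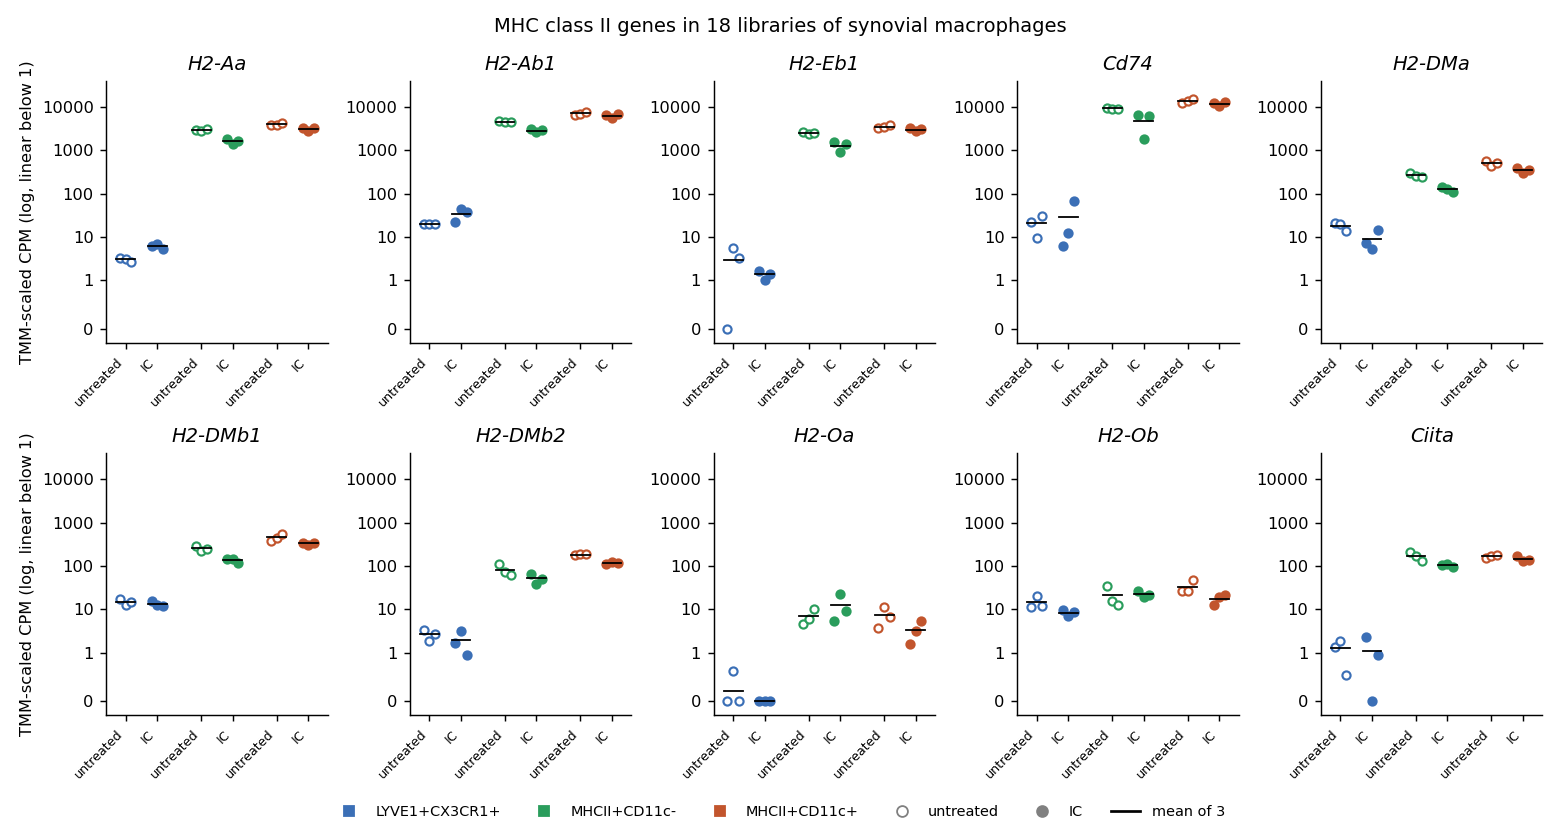
TMM-scaled CPM of each gene in each library (y axis, logarithmic above 1 CPM and linear below), for 3 subsets, untreated (open points) and with IC (filled points); black lines are means of 3 libraries. The LYVE1+CX3CR1+ libraries lie below both MHCII+ subsets for every gene except H2-Ob, whose LYVE1+CX3CR1+ values over both treatments, 6.82 to 20.6 CPM, overlap with theirs. Among IC libraries alone H2-Ob does not overlap, at 6.82 to 9.54 CPM against 18.8 to 26.02 (MHCII+CD11c-) and 12.3 to 21.2 CPM (MHCII+CD11c+).

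Of the members 8 form one stretch of chromosome 17 between H2-Oa (chr17:34092340-34095234, plus strand) and H2-Eb1 (chr17:34305867-34316674, plus strand) in the GENCODE annotation of GRCm38, and Ciita lies apart at chr16:10480059-10528418 on the plus strand. H2-Aa (chr17:34282744-34287823) is the only one of the 8 on the minus strand; H2-Ab1 spans chr17:34257689-34269419 beside it. The counts cover whole genes and do not separate exons from introns. RefSeq promoter windows of 250 bases before to 50 after the start were matched for 7 members (8 windows, since H2-DMa has a pair); H2-Ab1, Cd74 and Ciita had no entry. The X1 core GNNACNGAT followed after 15 to 30 bases by the Y box ATTGG on the same strand was searched for as the pair that CIITA acts through, and it was found in 2 of the 8 windows, against 40 of 32851 promoter windows (0.122%). The X1 core alone, on either strand, was in 7.82% of all windows and the Y box in 37.4%. The stretches shown are the 2 in which the pair was found. They belong to H2-DMb1, a beta chain of the peptide exchanger, and H2-Eb1, the I-E beta chain. Whether the pair bears on the changes after IC was not tested. Capitals mark the X1 core and then the Y box (GRCm38.p6, plus strand). Both stretches are wholly upstream of the RefSeq start, although the GENCODE gene of H2-DMb1 begins earlier, at 34153072, before the stretch shown.
H2-DMb1, chr17:34153087-34153144: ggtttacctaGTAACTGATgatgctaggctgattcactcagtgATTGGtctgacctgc
H2-Eb1, chr17:34305766-34305822: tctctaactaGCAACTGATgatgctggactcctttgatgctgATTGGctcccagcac
In H2-DMb1 the core begins 94 and the Y box 61 bases before the start; in H2-Eb1 they begin 91 and 59 bases before it. A match is a description of letters in this window, and its absence in the other windows says nothing of binding there.

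In untreated MHCII+ macrophages the class II genes were among the abundant transcripts and kept one order of levels. The 10 members together took 1.94 to 2.06% of the counts in MHCII+CD11c- libraries and 2.62 to 3.15% in MHCII+CD11c+ libraries, against 0.00972 to 0.0104% in LYVE1+CX3CR1+ libraries. Levels of different genes are compared here as CPM per kilobase of exon. In MHCII+CD11c- cells the order was Cd74 at 6610 ± 241 (SD, n = 3 here and below), H2-Ab1 at 3798 ± 87.3, H2-Aa at 2602 ± 107 and H2-Eb1 at 1515 ± 77.1 CPM per kilobase, each apart from its neighbour by more than these SDs. The H2-M genes followed at 181 ± 25.8 for H2-DMb1, 100.03 ± 13.2 for H2-DMa and 46.1 ± 14.96 for H2-DMb2. The order of H2-DMb1 and H2-DMa rests on the exon lengths used, 1404 and 2668 bases. In CPM they were at 254 ± 36.3 and 267 ± 35.2. Ciita, which encodes a regulator rather than a component, was at 20.6 ± 5.24 CPM per kilobase. H2-Oa at 6.39 ± 2.64 and H2-Ob at 5.95 ± 3.45 CPM per kilobase did not differ beyond their spread. The same order from Cd74 to Ciita held in MHCII+CD11c+ cells, with Cd74 at 9651 ± 1124 and Ciita at 20.3 ± 1.73 CPM per kilobase.

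MHCII+CD11c+ macrophages had more class II transcript than MHCII+CD11c- macrophages without treatment. By edgeR's quasi-likelihood test, adjusted over all genes, 4 of 10 members were higher and 0 lower, where 1.89% of all genes were called higher and 1.6% lower. The median log2 difference of the 10 members was 0.59, against -0.01 for all genes. H2-Ab1, the beta chain of I-A, was at 4724, 4559 and 4526 CPM in the MHCII+CD11c- libraries and 6597, 6995 and 7786 CPM in the MHCII+CD11c+ libraries, without overlap (log2 difference 0.63, SE 0.16, adjusted p = 0.0248 with edgeR). All 3 H2-M genes passed as well. H2-DMb2, the lesser H2-M beta chain, was at 109.96, 71.7 and 59.98 CPM against 174, 185 and 188 CPM, the largest fitted difference of the 10 (log2 difference 1.18, SE 0.23, adjusted p = 0.00264 with edgeR). H2-DMa was higher by 0.91 (SE 0.20, adjusted p = 0.00701) and H2-DMb1 by 0.83 (SE 0.17, adjusted p = 0.00392) on the log2 scale by the same edgeR test. H2-DMb1 and H2-DMb2 share 72 exact windows of 150 exon bases (5.74% and 4.14% of their windows), so reads of those stretches may have been split between them. Marker lists differed too: MHCII+ markers summed to 3743 to 5228 CPM in MHCII+CD11c- and 5610 to 8576 CPM in MHCII+CD11c+ libraries (3 of 8 called higher), dendritic cell markers to 155 to 169 and 280 to 467 CPM (2 of 6 tested higher), and general macrophage markers to 10983 to 13137 and 7592 to 8207 CPM (3 of 10 lower). The MHCII+ list includes Itgax, which encodes the CD11c that these 2 subsets were sorted by. Its difference, 2.31 to 13.2 against 239 to 302 CPM, was therefore set by the gate. The part of these lists in the class II difference was not tested.

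The regulator did not show this difference. Ciita was at 214, 167 and 128 CPM in MHCII+CD11c- libraries and at 151, 173 and 177 CPM in MHCII+CD11c+ libraries, and the groups overlapped (log2 difference -0.02, SE 0.22, adjusted p = 0.982 with edgeR). H2-Aa and H2-Eb1 were higher in every MHCII+CD11c+ library than in any MHCII+CD11c- library, with log2 differences of 0.46 and 0.50. They missed the threshold (adjusted p = 0.0672 and 0.204 with edgeR). A fit to only the 6 libraries compared called both (adjusted p = 0.0116 and 0.00851 with edgeR), as did DESeq2 (adjusted p = 0.0131 and 0.0388). Cd74, at 9117 to 9750 against 12146 to 15320 CPM, did not overlap and missed it too (log2 difference 0.55, SE 0.42, adjusted p = 0.589 with edgeR). The 6-library fit called Cd74 (adjusted p = 0.00267), as did edgeR with no filter on low counts (0.00818), but DESeq2 did not (0.763). The H2-Ab1 call was lost when MHCII+CD11c- library 2 or 3, or MHCII+CD11c+ library 2 or 3, was left out (adjusted p from 0.0705 to 0.12), and the H2-DMa call when MHCII+CD11c- library 3 was (adjusted p = 0.056).

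LYVE1+CX3CR1+ macrophages had less of nearly every member, but not by one factor. Of the 7 members that the sort did not stain, Ciita, H2-Oa and H2-DMb2 entered the test only through the MHCII+ subsets, where they were high, so their levels are given as values with no test. By edgeR, H2-DMa, H2-DMb1 and Cd74 were lower than in untreated MHCII+CD11c- cells, and these 3 and H2-Ob lower than in untreated MHCII+CD11c+ cells, where 7.12% and 12.4% of all genes were called lower (4.33% and 9.49% higher). For the stained genes, given with no test, the LYVE1+CX3CR1+ level of H2-Aa was 0.104% of that in MHCII+CD11c- cells, that of H2-Eb1 0.116% and that of H2-Ab1 0.438%. Cd74, the invariant chain, which was not stained, was at 22.8, 9.36 and 30.005 CPM in LYVE1+CX3CR1+ libraries against 9750, 9211 and 9117 CPM in MHCII+CD11c- libraries, which is 0.221% of that level (log2 difference -8.80, SE 0.61, adjusted p = 9.38e-11 with edgeR).

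The H2-M genes were lower by a smaller factor. H2-DMa, the alpha chain of the exchanger, was at 21.5, 19.96 and 13.9 CPM in LYVE1+CX3CR1+ libraries and 307, 254 and 240 CPM in MHCII+CD11c- libraries, so that 6.92% of the level was present. H2-DMb1 was at 16.8, 12.5 and 15.003 CPM against 293, 221 and 247 CPM, or 5.82%, and H2-DMb2 at 3.27%. H2-DMa and H2-DMb1 were called lower (log2 differences -3.86 and -4.10, SE 0.24 and 0.21, adjusted p = 1.11e-11 and 2.46e-13 with edgeR), and none of the libraries of the 3 genes overlapped. H2-DMa shares its span with genes on both strands (Brd2, CR974462.3, CR974462.4 and Gm20493), so part of its counts may belong to them. H2-Eb1 (Gm20513), H2-Oa (BC051537) and Ciita (Dexi) overlap genes of the minus strand, and the strand setting of the counting is not given in the sources used here.

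H2-Ob stood at the other end. This chain of the H2-M inhibitor was at 11.4, 20.6 and 11.8 CPM in LYVE1+CX3CR1+ libraries and 34.7, 15.8 and 12.2 CPM in MHCII+CD11c- libraries, which overlapped (69.8% of the level, log2 difference -0.51, SE 0.42, adjusted p = 0.529 with edgeR). Against MHCII+CD11c+ cells, at 26.1, 26.2 and 46.5 CPM, it was lower (log2 difference -1.18, SE 0.39, adjusted p = 0.0312), a call that was lost without LYVE1+CX3CR1+ library 1 or 3 or MHCII+CD11c+ library 3 (adjusted p = 0.129, 0.133 and 0.23), by library totals (0.0519) and with no filter on low counts (0.0523, all edgeR). Its partner H2-Oa had 0, 1 and 0 counts in LYVE1+CX3CR1+ libraries against 4, 5 and 10 in MHCII+CD11c- libraries, at least 3.80-fold lower against a floor of 3 counts a library. H2-O is best known from B cells. The 8 B cell markers found in the files, of 10 listed, summed to 295 to 425 CPM in untreated MHCII+CD11c- libraries, 127 to 151 CPM in MHCII+CD11c+ libraries and 20.6 to 23.5 CPM in LYVE1+CX3CR1+ libraries, where Cd79b and Pax5 were among those at 0; their part in the H2-O levels was not tested.

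Ciita itself was near absent from LYVE1+CX3CR1+ cells. It had 2, 3 and 1 counts in the untreated libraries and 4, 0 and 2 with IC, against 185, 137 and 126 counts in the less deeply sequenced MHCII+CD11c- libraries, at least 92.6-fold lower than there and at least 91.1-fold lower than in MHCII+CD11c+ cells.

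**Figure D2:**
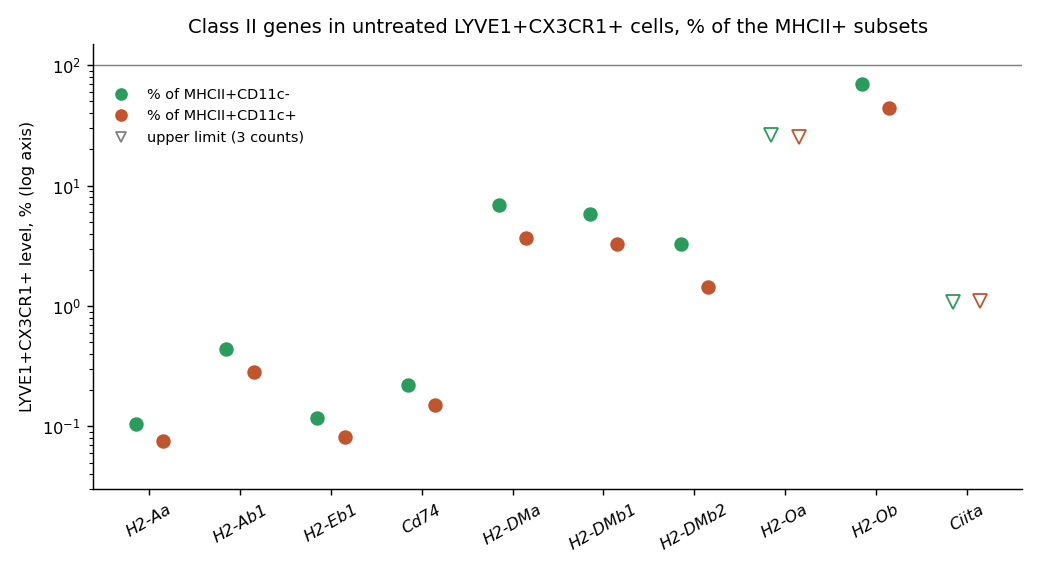
Mean TMM-scaled CPM of each gene in untreated LYVE1+CX3CR1+ libraries as a percentage (y axis, logarithmic) of the mean in MHCII+CD11c- and MHCII+CD11c+ libraries, 3 libraries a group; open triangles are upper limits for genes with at most 3 counts a library. H2-Aa, H2-Ab1, H2-Eb1 and Cd74 lie below 1%, the H2-M genes between 1.44 and 6.92% and H2-Ob at 44.3 and 69.8%.

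The proportions between members also differed. H2-Ab1 gave 6.00 to 7.60 counts per count of H2-Aa in untreated LYVE1+CX3CR1+ libraries, where each H2-Aa value was 5 counts, but 1.48 to 1.62 in MHCII+CD11c- and 1.74 to 1.78 in MHCII+CD11c+ libraries. H2-DMa gave 0.684 to 1.07 counts per count of H2-Ab1 in LYVE1+CX3CR1+ libraries and 0.0530 to 0.0848 in the untreated MHCII+ libraries. As a measure of MHCII+ transcripts in these libraries, 8 markers of MHCII+ macrophages other than class II genes (Retnla, Itgax, Ccr2, Mgl2, Clec10a, Ccl17, Napsa and Ear2) summed to 127 to 255 CPM in untreated LYVE1+CX3CR1+ libraries against 3743 to 5228 CPM in MHCII+CD11c- libraries, Ccl17 being at 0 in both groups; their part in the low class II counts was not tested.

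**Figure D3:**
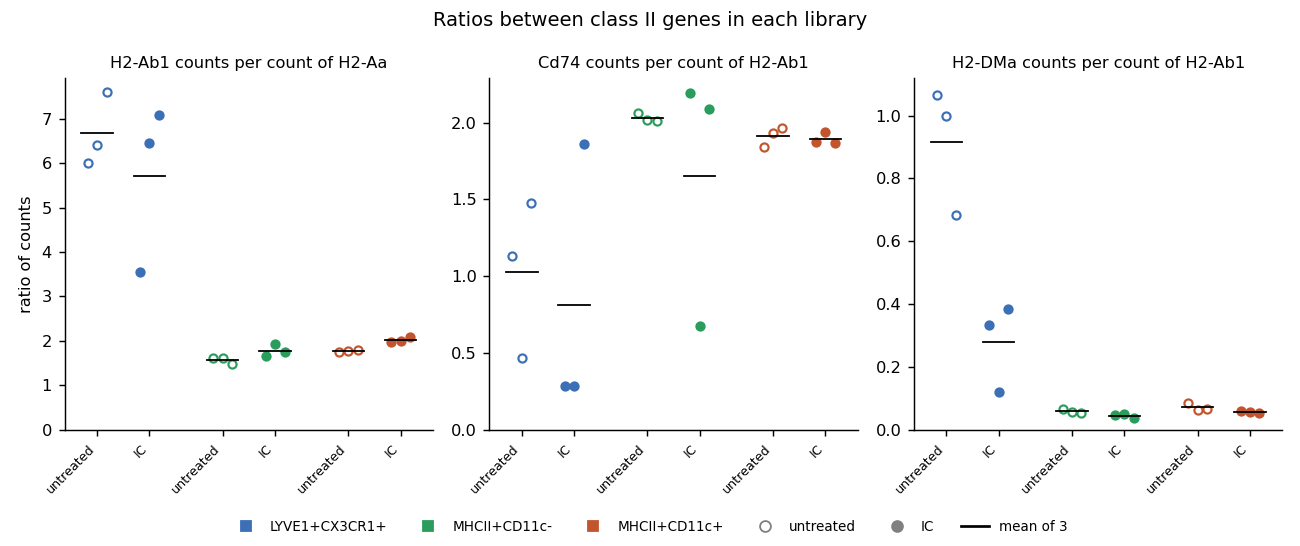
Ratios of counts between class II genes (y axes) in each library, untreated (open points) and with IC (filled points) in 3 subsets; black lines are means of 3 libraries. H2-Ab1 per H2-Aa and H2-DMa per H2-Ab1 are higher in LYVE1+CX3CR1+ libraries than in any MHCII+ library, and Cd74 per H2-Ab1 is 0.674 in 1 MHCII+CD11c- IC library against 2.09 and 2.19 in the other two.

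After IC, class II transcripts fell in MHCII+CD11c- macrophages. Of the 10 members 5 were lower and 0 higher by edgeR, where 0.512% of all genes were called lower and 0.55% higher, and the median log2 change of the 10 was -0.79 against -0.01 for all genes. The IC values of 7 members lay wholly below the untreated ones, as did those of 8.54% of all genes. The members' share of all counts went from 1.94 to 2.06% down to 1.38, 0.784 and 1.28%.

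Both chains of I-A were among the genes that fell. H2-Aa, the alpha chain, was at 2942, 2812 and 3052 CPM in untreated and 1866, 1381 and 1658 CPM in IC libraries (log2 fold change -0.84, SE 0.14, adjusted p = 0.00212 with edgeR). It is the member with the smallest adjusted p, and the call held when any one of the 6 libraries was left out (adjusted p 0.00147 to 0.0167). H2-Ab1 went from 4724, 4559 and 4526 CPM to 3073, 2661 and 2913 CPM (log2 fold change -0.67, SE 0.16, adjusted p = 0.0365 with edgeR). The H2-Ab1 groups lay far apart, but the call was kept in only 1 of the 6 fits that left out a library, the one without IC library 2 (adjusted p 0.0297 to 0.0869).

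H2-Eb1 and the main H2-M pair fell too. H2-Eb1, the unpaired I-E beta chain, was at 2668, 2414 and 2504 CPM untreated and 1569, 931 and 1403 CPM with IC, lowest in library 2 (log2 fold change -0.95, SE 0.21, adjusted p = 0.0188 with edgeR). H2-DMa went from 307, 254 and 240 CPM to 141, 131 and 112 CPM (log2 fold change -1.08, SE 0.22, adjusted p = 0.012 with edgeR). H2-DMb1 went from 293, 221 and 247 CPM to 143, 146 and 116 CPM (log2 fold change -0.94, SE 0.19, adjusted p = 0.0114 with edgeR), a call kept without each library in turn. The H2-Eb1 call was lost without any one of the untreated libraries (adjusted p 0.0506 to 0.0586) and the H2-DMa call without IC library 3 (adjusted p = 0.0512).

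Cd74 and Ciita did not pass. Cd74 (chr18:60803848-60812652, plus strand) was at 9750, 9211 and 9117 CPM untreated and at 6739, 1794 and 6080 CPM with IC, so that IC library 2 stood far below the other two (log2 fold change -0.94, SE 0.42, adjusted p = 0.297 with edgeR). Without that library the log2 fold change was -0.55 (adjusted p = 0.507), whereas edgeR with no filter on low counts called the fall of Cd74 (-0.93, adjusted p = 2.75e-07). Mir5107, a microRNA gene inside Cd74 on the same strand, had the same pattern, at 1181, 1246 and 1169 CPM untreated and 830, 278 and 754 CPM with IC, and its counts may be reads of Cd74. Ciita was at 214, 167 and 128 CPM untreated and 104, 113 and 93.7 CPM with IC, all below the lowest untreated value (log2 fold change -0.73, SE 0.25, adjusted p = 0.148 with edgeR). H2-DMb2 overlapped between groups at 59.98 to 109.96 and 37.5 to 65.1 CPM (log2 fold change -0.63, adjusted p = 0.255). The H2-O genes had no negative fitted change: H2-Oa had a log2 fold change of 0.68 (adjusted p = 0.766) on 2 to 10 counts a library and H2-Ob one of 0.08 (adjusted p = 0.967, all edgeR).

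A fit to only the 6 MHCII+CD11c- libraries called none of the 10, where it called 21 genes in all against 112 in the main fit. The 5 genes then had adjusted p from 0.0966 to 0.267 with edgeR and log2 fold changes from -0.67 to -1.07. DESeq2 called 5 members, the same number as the main fit, where it called 280 genes in all.

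Other marker lists moved alongside. The 8 MHCII+ markers summed to 3743 to 5228 CPM in untreated and 1846 to 2816 CPM in IC libraries of MHCII+CD11c- cells; Mgl2, a lectin of this population, fell (487, 611 and 587 to 273, 210 and 264 CPM, log2 fold change -1.16, adjusted p = 0.0129), whereas Itgax, which encodes the CD11c by which these cells had been gated out, rose (2.31, 2.43 and 13.2 to 70.3, 33.8 and 30.9 CPM, log2 fold change 2.75, adjusted p = 0.026, both edgeR). The 6 markers of LYVE1+CX3CR1+ macrophages summed to 2050, 2008 and 2104 CPM untreated and to 3552, 1820 and 4472 CPM with IC. The B cell markers, at 295 to 425 CPM untreated and 294 to 420 CPM with IC, overlapped. T and NK cell markers summed to 48.6 to 97.2 and 11.3 to 33.8 CPM, and dendritic cell markers to 155 to 169 and 62.4 to 119 CPM. The 5 monocyte markers summed to 57.1 to 238 CPM untreated and 390 to 736 CPM with IC, and the 7 neutrophil markers found in the files, of 8 listed, to 715 to 1807 and 1437 to 4089 CPM, while 10 general macrophage markers stayed between 9340 and 13137 CPM. The part of these shifts in the fall of class II transcripts was not tested.

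**Figure D4:**
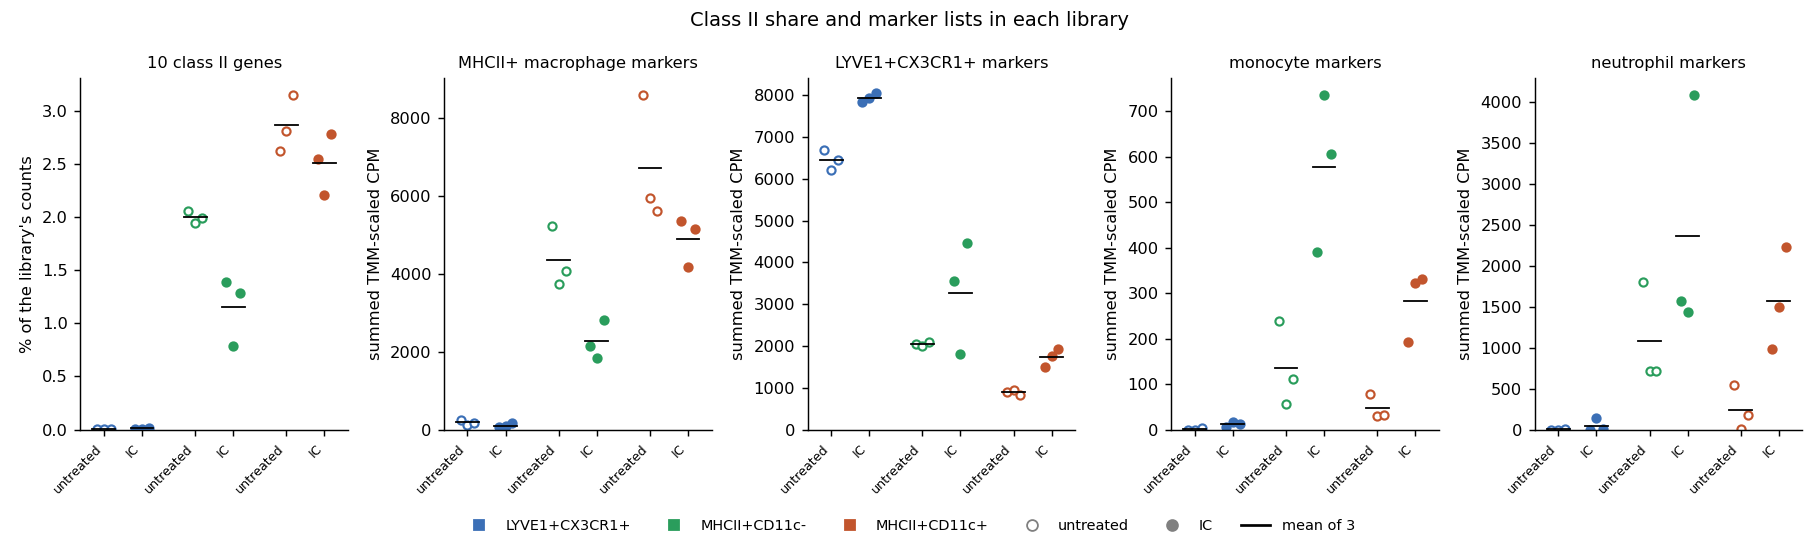
Share of counts taken by the 10 class II genes (first panel, % of each library's counts) and summed TMM-scaled CPM of 4 marker lists (other panels) in each library, untreated (open points) and with IC (filled points) in 3 subsets; black lines are means of 3 libraries. In MHCII+CD11c- cells the class II share and the MHCII+ markers are lower in every IC library than in any untreated one, and the monocyte markers higher.

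In MHCII+CD11c+ macrophages no member passed the test after IC. By edgeR 0 of 10 members were called, where 0.673% of all genes were. An unadjusted p under 0.05 was found by the same test for 5 members and for 1001 of 10550 genes. DESeq2 also called 0 members, where it called 157 genes in all. All 10 fitted changes were below zero (median log2 fold change -0.42, against -0.01 for all genes), and the IC values of 6 members lay wholly below the untreated ones, as did those of 9.93% of all genes. H2-Aa was at 3793, 3931 and 4367 CPM untreated and 3290, 2746 and 3331 CPM with IC (log2 fold change -0.37, SE 0.14, adjusted p = 0.32 with edgeR). H2-Ab1 overlapped, at 6597 to 7786 CPM and 5498 to 6918 CPM (log2 fold change -0.18, SE 0.16, adjusted p = 0.837). H2-DMb2 had the lowest adjusted p of the 10, at 174, 185 and 188 CPM against 111, 122 and 117 CPM (log2 fold change -0.64, SE 0.22, adjusted p = 0.237), and it was called in a fit to only these 6 libraries (adjusted p = 0.0467, all edgeR). Ciita was at 151 to 177 and 129 to 167 CPM. In these cells too the MHCII+ markers had a lower mean sum with IC (4177 to 5354 CPM against 5610 to 8576 CPM), the LYVE1+CX3CR1+ markers went from 836 to 947 up to 1491 to 1925 CPM, the monocyte markers from 30.7 to 78.9 up to 193 to 330 CPM and the neutrophil markers from 3.27 to 547 up to 987 to 2236 CPM. Dendritic cell markers went from 280 to 467 down to 209 to 235 CPM (1 of 6 tested called lower) and T and NK cell markers from 81.1 to 108 down to 69.7 to 78.3 CPM; their part in the class II values was not tested.

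With IC, the gap between the MHCII+ subsets covered more members. Of 10 members 6 were higher in MHCII+CD11c+ cells by edgeR, where 1.77% of all genes were called higher and 1.08% lower: H2-Aa (log2 difference 0.93), H2-Ab1 (1.13), H2-Eb1 (1.21), H2-DMa (1.47), H2-DMb1 (1.31) and H2-DMb2 (1.17), with adjusted p at most 0.0102. The H2-DMb2 call was lost without MHCII+CD11c- IC library 3 (adjusted p = 0.0555) and in a fit to only these libraries (0.0682, both edgeR). These 6 include the 4 that were higher without treatment. Cd74 was higher in every MHCII+CD11c+ IC library (10655 to 12914 CPM against 1794 to 6739 CPM) but missed the threshold (log2 difference 1.29, SE 0.43, adjusted p = 0.113 with edgeR), which it passed with no filter on low counts (adjusted p = 7.6e-15). The difference between the IC responses of the MHCII+ subsets was itself tested, and no member passed (0 of 10 by edgeR, where 0.00948% of all genes were called). It was 0.71 for H2-Eb1 (SE 0.29), 0.50 for H2-Ab1 (SE 0.23) and 0.47 for H2-Aa (SE 0.20) on the log2 scale, with adjusted p from 0.772 to 0.801. An unadjusted p under 0.05 by edgeR was found for 3 members and for 642 of 10550 genes. These comparisons use the same MHCII+ libraries.

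In LYVE1+CX3CR1+ macrophages the I-A genes had higher values after IC and several other members lower ones, all from a low base. By edgeR 0 of 10 members were called, where 0.464% of all genes were. An unadjusted p under 0.05 was found by the same test for 3 members and for 919 of 10550 genes. H2-Aa had 5, 5 and 5 counts in untreated libraries and 11, 13 and 11 with IC, which is 3.36, 3.12 and 2.68 CPM against 6.17, 6.82 and 5.26 CPM, without overlap (log2 fold change 0.98, SE 0.32, adjusted p = 0.422 with edgeR). H2-Ab1 was at 20.1, 19.96 and 20.4 CPM (30 to 38 counts) untreated and 21.9, 44.1 and 37.3 CPM (39 to 84 counts) with IC; the groups did not overlap, but IC library 1 lay close to the untreated ones (log2 fold change 0.77, SE 0.21, adjusted p = 0.136 with edgeR). Higher without overlap were 9.57% of all genes. With IC, H2-Aa was at 0.372% and H2-Ab1 at 1.19% of their MHCII+CD11c- level.

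DESeq2 called 2 of the 10 members in these cells, where it called 2.83% of the 5435 genes it adjusted. H2-Ab1 was higher (log2 fold change 0.78, SE 0.22, adjusted p = 0.0233) and H2-DMa lower (-1.01, SE 0.30, adjusted p = 0.0386). H2-DMa was at 21.5, 19.96 and 13.9 CPM untreated and 7.29, 5.25 and 14.3 CPM with IC, where library 3 fell within the untreated range (edgeR log2 fold change -1.001, adjusted p = 0.169). With edgeR both depended on the fit. H2-Ab1 was called with no filter on low counts (log2 fold change 0.80, adjusted p = 0.0154) and without IC library 1 (1.01, adjusted p = 0.0194). H2-DMa was called without IC library 3 (-1.54, adjusted p = 0.0183, all edgeR).

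Cd74, H2-Eb1, H2-Ob and H2-DMb1 did not pass in LYVE1+CX3CR1+ cells. Cd74 was at 22.8, 9.36 and 30.005 CPM untreated and at 6.17, 12.6 and 69.3 CPM with IC, and its log2 fold change of 0.52 (adjusted p = 0.899 with edgeR) became -1.14 without IC library 3. H2-Eb1 had 0, 9 and 6 counts untreated and 3, 2 and 3 with IC. H2-Ob was lower without overlap at 11.4 to 20.6 and 6.82 to 9.54 CPM (log2 fold change -0.80, SE 0.43, adjusted p = 0.63 with edgeR), as were 9.49% of all genes. H2-DMb1 was at 12.5 to 16.8 and 11.9 to 15.7 CPM, and H2-Oa had 0 counts in all 3 IC libraries. Marker lists in these cells were small: MHCII+ markers summed to 60.04 to 159 CPM with IC, B cell markers to 5.26 to 12.9 CPM, and dendritic cell markers to 3.67 to 4.30 CPM, each list lower on average than without treatment, whereas the monocyte markers (0 to 3.21 against 6.17 to 15.7 CPM) and neutrophil markers (0.624 to 6.43 against 1.12 to 140.1 CPM) had a higher mean, and the LYVE1+CX3CR1+ markers summed to 6217 to 6702 CPM untreated and 7845 to 8045 CPM with IC. Their part in the class II values was not tested.

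**Figure D5:**
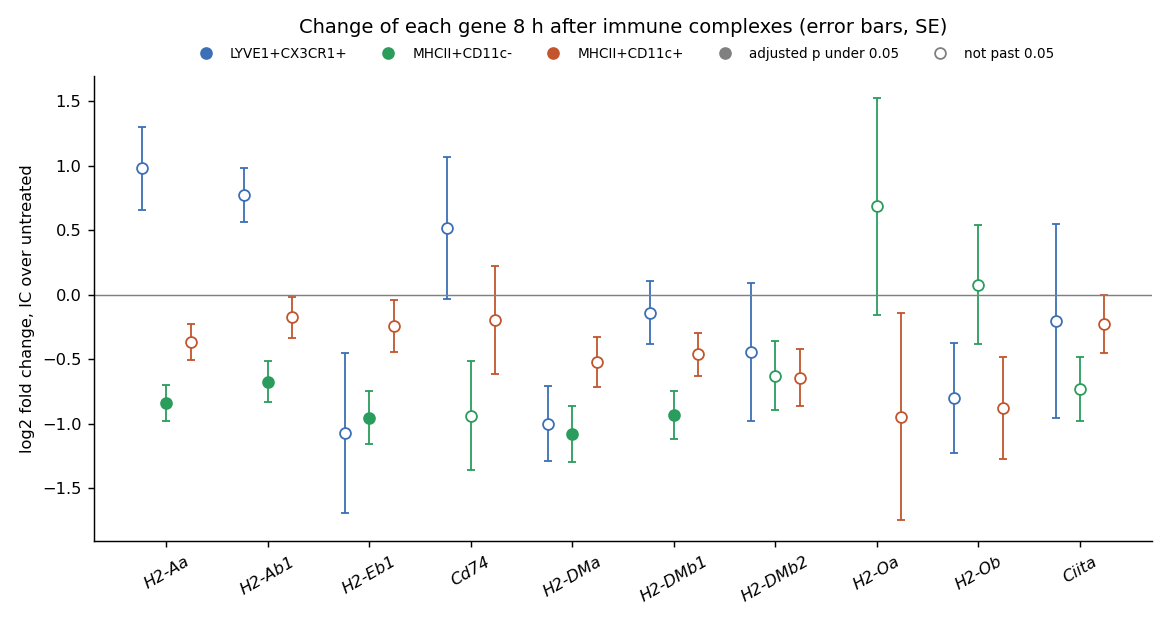
Fitted log2 fold change of each gene 8 h after IC over untreated (y axis; points, 3 against 3 libraries; error bars, SE of edgeR's fit) in 3 subsets; filled points passed an adjusted p of 0.05. H2-Aa and H2-Ab1 lie above zero in LYVE1+CX3CR1+ cells and below zero in both MHCII+ subsets, and the 5 filled points, from -0.67 to -1.08, are all in MHCII+CD11c- cells; H2-Oa in LYVE1+CX3CR1+ cells, at the floor in both groups, is not drawn.

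The opposite directions of H2-Aa and H2-Ab1 were tested as a difference between subsets in the response to IC. Both genes encode chains that the sort stained, and the gate bounds their values in both treatments. H2-Aa entered these tests only through the MHCII+ subsets. In LYVE1+CX3CR1+ libraries it had 5 counts each untreated and 11, 13 and 11 with IC, so any call of its difference rests on few counts. Between LYVE1+CX3CR1+ and MHCII+CD11c- cells the response of H2-Ab1 differed by 1.45 (SE 0.26) and that of H2-Aa by 1.82 (SE 0.35) on the log2 scale, each with an adjusted p of 0.108 by edgeR (unadjusted p 1.06e-05 and 2.04e-05). No gene of 10550 passed in that comparison (0%), 687 genes and 4 members had an unadjusted p under 0.05, and no member was called. DESeq2 called 2 of the 10 members, H2-Ab1 (1.44, SE 0.26, adjusted p = 5.81e-05) and H2-Aa (1.83, SE 0.48, adjusted p = 0.0431), where it called 0.466% of 2573 genes. With edgeR, H2-Ab1 also passed without LYVE1+CX3CR1+ IC library 1 (adjusted p = 0.00189) or without MHCII+CD11c- IC library 2 (adjusted p = 0.0496).

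The opposite direction did not extend to the group as a whole. Between the same subsets the difference of the response was -0.12 for H2-Eb1 and 0.08 for H2-DMa, both of which had negative log2 fold changes in each (-1.07 and -0.95 for H2-Eb1, -1.001 and -1.08 for H2-DMa). The H2-Eb1 value rests on at most 9 counts a library in LYVE1+CX3CR1+ cells and ran from -0.61 to 0.62 without a library. H2-DMb1 differed by 0.80 (SE 0.31, adjusted p = 0.719 with edgeR). Cd74 differed by 1.46 (SE 0.70, adjusted p = 0.749 with edgeR), a value that became -0.20 without LYVE1+CX3CR1+ IC library 3. Of the 10 fitted differences 7 were positive and 3 negative (median 0.36, against 0.01 for all genes). Against MHCII+CD11c+ cells the response of H2-Aa in LYVE1+CX3CR1+ cells differed by 1.35 (SE 0.35) and that of H2-Ab1 by 0.95 (SE 0.26), both with adjusted p = 0.825 by edgeR, and 0 of 10 members were called where 0.00948% of genes were. DESeq2 called H2-Ab1 alone there (adjusted p = 0.0498), where it called 0.627% of 1755 genes. The comparisons of LYVE1+CX3CR1+ with each MHCII+ subset share the LYVE1+CX3CR1+ libraries.

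Genes around the class II route were examined in lists, chosen with earlier results of these data known. After IC, 1 gene of all 7 lists passed in any subset: Ctsl, a lysosomal protease that trims the invariant chain, rose in MHCII+CD11c- cells from 163, 181 and 127 CPM to 258, 326 and 300 CPM (log2 fold change 0.91, SE 0.17, adjusted p = 0.00814 with edgeR). It was the only one of 11 peptide processing genes called there. Of the interferon-gamma route to Ciita (8 genes), the class II promoter factors and CIITA cofactors (14 genes), the myeloid regulators (6 genes), the genes of class II turnover and IL-10 (8 tested of 10) and costimulation (7 tested of 9), none was called after IC in any of the 3 subsets, nor were the 6 tested neighbours in the class II region. In no list was a difference of IC responses called for any gene.

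Between the untreated subsets some listed genes differed, and those named here were picked with their values known. The shares called over all genes were 4.33% higher and 7.12% lower for LYVE1+CX3CR1+ against MHCII+CD11c- cells, 9.49% and 12.4% against MHCII+CD11c+ cells, and 1.89% and 1.6% for MHCII+CD11c+ against MHCII+CD11c- cells. In the interferon-gamma route 2 of 8 genes were lower in LYVE1+CX3CR1+ than in MHCII+CD11c- cells, among them Irf1 (log2 difference -0.85), a factor that acts on the Ciita promoter. Against MHCII+CD11c+ cells 4 of 8 were lower, among them Irf1 (-0.70), Jak2 (-1.31), a kinase of the receptor, and Socs1 (-1.44), its feedback inhibitor. Of the 14 promoter factors and cofactors 0 differed from MHCII+CD11c- cells and 1, Nfya (0.59), a subunit of the Y box factor, was higher than in MHCII+CD11c+ cells. Of 6 neighbours in the class II region, the class I antigen processing genes Psmb9 (-1.36) and Tap1 (-0.80) were lower than in MHCII+CD11c- cells, and 4 were lower and 1 higher than in MHCII+CD11c+ cells. Of 11 peptide processing genes 3 were higher than in MHCII+CD11c- cells, the proteases Ctsd (1.29), Ctss (0.57) and Lgmn (0.51), and 1 was lower, Ctsh (-1.21); against MHCII+CD11c+ cells 7 were higher and 2 lower. In the turnover list 2 of 8, March8 (1.10), a ubiquitin ligase that can act on class II, and Il10rb (0.72), a chain of the IL-10 receptor, were higher than in MHCII+CD11c- cells, as were 2 against MHCII+CD11c+ cells. Of 6 myeloid regulators Irf4 was lower than in both MHCII+ subsets (-1.06 and -1.62), and Maf (1.195) was among those higher than in MHCII+CD11c+ cells. Of 7 costimulation genes 2 were lower than in MHCII+CD11c- cells, and 2 were higher and 3 lower than in MHCII+CD11c+ cells. Between the MHCII+ subsets Maf (-0.72), Lgmn (-0.76) and Cd40 (-1.23), a costimulation gene, were among those lower in MHCII+CD11c+ cells. All of these passed an adjusted p of 0.05 with edgeR.

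The genes whose pattern was most like that of the I-A and I-E chains were named by the Pearson correlation of log2 CPM with the mean of H2-Aa, H2-Ab1 and H2-Eb1 over 18 libraries, as a description, since libraries of a group share their subset. The 5 highest among 10540 genes that are no members were Plbd1 (0.989), Mir5107 (0.988), Ccr2 (0.982), Clec4a1 (0.981) and Clec10a (0.980). Among members Ciita had 0.991, Cd74 0.985, H2-DMb1 0.982, H2-DMb2 0.980, H2-DMa 0.963, H2-Oa 0.837 and H2-Ob 0.672. With each subset's mean subtracted the 5 highest were Rps21 (0.854), Spry2 (0.833), Plekhn1 (0.811), Tusc1 (0.809) and BC029214 (0.805), and the members were lower, from 0.598 for H2-DMb1 and 0.437 for H2-DMb2 to -0.220 for H2-Oa. Ciita, at 0.991 across subsets, was at 0.362 within them. That value includes the LYVE1+CX3CR1+ libraries, where Ciita had 0 to 4 counts and H2-Eb1 0 to 9. Spry2, Plekhn1, Tusc1 and BC029214 had group means of at most 13.5 CPM, and Spry2 was at 0 in MHCII+CD11c- IC libraries. Low counts therefore enter the correlations within subsets.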

How the data were processed

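Synovial macrophages of 6 groups (3 subsets, untreated or with IC, 3 libraries each) were analysed as grouped by the sample labels. The authors trimmed reads (Trim Galore), used HISAT2 for alignment to mm10 and featureCounts for counting, and the files hold, as deposited, whole-number counts of each gene symbol with no scaling. Versions, annotation, strand setting and the treatment of duplicate or multiply matching reads are not given in the sources used here. A combined table with the same values was not used.

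TMM factors, CPM and the quasi-likelihood test (edgeR 4.0.16, R 4.3.3) were computed over all 18 libraries, with filterByExpr (minimum count 10, total 15) and Benjamini-Hochberg adjustment over all genes of a comparison at 0.05. The study names DESeq2 with sva; DESeq2 1.42.0 and sva 3.50.0 were run as alternatives. SEs were derived from the log2 fold change and its F statistic. A group was at the floor when each library had 3 counts or fewer; floors cover counting error only. Genes were named by a rule: all members, the listed genes called after IC (at most 4 a list), and the 5 most correlated genes of either kind. Listed genes called only between untreated subsets, Mgl2 and Itgax were named after their values were seen. Members, lists and rule were chosen with earlier results of these data known. Gene positions are those of GENCODE on GRCm38 and promoter windows those of RefSeq. The code was tested on simulated counts. No replicate pair held identical values (chi-square per gene 3.42 to 7.80). Some listed genes are not reported here by name.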

Additional observations from a re-analysis of the deposited data

How the results depend on the processing

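The counts of members called, of 5 after IC in MHCII+CD11c- cells, became 0 when all other groups were left out of the fit, 3 with at least 10 counts in every library (a filter that left fewer members) and 3 with 1 surrogate variable, and lay between 3 and 5 when a library was left out. In LYVE1+CX3CR1+ cells the count after IC of 0 became 1 with no filter on low counts, 2 with DESeq2 and 0 to 1 without a library; in MHCII+CD11c+ cells it became 1 when all other groups were left out of the fit. The difference of responses between LYVE1+CX3CR1+ and MHCII+CD11c- cells gave 3 called members with no filter on low counts, 2 with DESeq2 and 0 to 1 without a library, and that between LYVE1+CX3CR1+ and MHCII+CD11c+ cells 1 with DESeq2. Of the 7 unstained members 6 and 7 were called lower in untreated LYVE1+CX3CR1+ cells against MHCII+CD11c- and MHCII+CD11c+ cells, counts that include Ciita, H2-Oa and H2-DMb2, which the filter let in only where they were high; where every library needed 10 counts or more, 3 were called lower against each, and 3 higher in MHCII+CD11c+ than MHCII+CD11c- cells with IC. Without treatment that last comparison gave 7 when all other groups were left out of the fit and 2 to 4 without a library. The causes were not tested. Over all genes, the 49, 112 and 71 called after IC in LYVE1+CX3CR1+, MHCII+CD11c- and MHCII+CD11c+ cells became 154, 280 and 157 with DESeq2, 160, 337 and 250 with no filter on low counts, and 276, 21 and 176 with all other groups left out. Between the MHCII+ subsets 368 genes without and 301 with IC became 581 and 472 with DESeq2, 578 and 465 with no filter on low counts, and the 301 became 106 with all other groups left out; against LYVE1+CX3CR1+ cells 1208 and 2304 became 750 and 1291 where every library needed 10 counts or more. The 0, 1 and 1 genes with different responses became 12, 11 and 1 with DESeq2 and 20, 27 and 29 once genes of low count were kept. The other 153 of 175 alternative counts were within 1.5 times the main one, which includes main counts of 0 that stayed at 0. For the 5 members after IC in MHCII+CD11c- cells, 6 of 9 alternatives and 2 of 6 fits without a library were within it.

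None of the log2 values that changed sign had passed the test. Untreated, H2-Oa between MHCII+CD11c+ and MHCII+CD11c- cells was -0.022 by library totals, -0.0528 with the replicate block, -0.0548 with the pool as a block and -0.42 to 0.40 without a library; Ciita was 0.0057 with the replicate block, 0.00252 with the pool as a block and -0.20 to 0.18 without a library. By library totals the difference of responses of H2-DMa (LYVE1+CX3CR1+ minus MHCII+CD11c-) was -0.013, and against MHCII+CD11c+ that of H2-Ob -0.00642 and of Ciita -0.041. Leaving out each library gave -0.84 to 0.066 for H2-Ob between untreated LYVE1+CX3CR1+ and MHCII+CD11c- cells, and after IC -0.21 to 0.65 for H2-Ob in MHCII+CD11c- cells and -2.13 to 0 for H2-Oa, -1.14 to 0.33 for Ciita and -1.14 to 0.98 for Cd74 in LYVE1+CX3CR1+ cells. For the difference of responses between LYVE1+CX3CR1+ and MHCII+CD11c- cells it gave -0.46 to 0.35 (H2-DMa), -0.34 to 0.53 (H2-DMb2), -0.61 to 0.62 (H2-Eb1), -0.41 to 1.06 (Ciita) and -0.20 to 1.92 (Cd74); between LYVE1+CX3CR1+ and MHCII+CD11c+ cells -0.26 to 0.40 (H2-Ob), -0.91 to 0.56 (Ciita), -1.18 to 0.95 (H2-Oa), -0.33 to 0.54 (H2-DMb2) and -0.94 to 1.18 (Cd74); and between the MHCII+ subsets -0.30 to 0.15 (H2-DMb2).

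Numbers 1 to 3 did not meet the criterion for pairing, a correlation over 0.1 in every pair. Of 18 pairs of the same treatment 1, of 9 of the same subset 0 and of 18 others 0 had a correlation of deviations over 0.1. Pairs of the same treatment ran from -0.046 to 0.132. The library with the same number was the best match in 51 of 90 cases, each a choice among the 3 libraries of another group. Missing the criterion does not show that libraries of the same number are unpaired, so fits with a block are given here. The study's scheme can be read as sorting the 3 subsets of a treatment from the same pool, which the labels do not say. With the replicate block 6 and 7 members were called for LYVE1+CX3CR1+ against MHCII+CD11c- and MHCII+CD11c+ cells, where 1222 and 2303 genes in all were. Those counts include Ciita, H2-Oa and H2-DMb2, which the filter let in only where they were high. After IC it called 0, 5 and 0 members in LYVE1+CX3CR1+, MHCII+CD11c- and MHCII+CD11c+ cells, where 60, 120 and 79 genes in all were called. Between the MHCII+ subsets it called 4 and 7 members without and with IC, where 399 and 320 genes in all were called. The added gene was Cd74, higher in MHCII+CD11c+ than MHCII+CD11c- cells with IC (log2 difference 1.40, adjusted p = 0.0407 with edgeR; 1.49 and 0.0137 with the pool of each treatment as a block, a fit that cannot be made for IC against untreated). With that pool block H2-Aa was higher in untreated MHCII+CD11c+ than MHCII+CD11c- cells (adjusted p = 0.0382 with edgeR) and the H2-Ob call against MHCII+CD11c+ cells was lost (0.0558). Low counts limit what could be seen in LYVE1+CX3CR1+ cells, where 5 members had fewer than 10 counts in at least 1 library.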
